A study of Mus musculus with 16 samples.

Results

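H3K4Me1, monomethylation of lysine 4 of histone H3, was compared between XX and XY mouse ES cells through its lists of enriched regions. The regions were those of the H3K4Me1 lists on chromosomes 1 to 19, which were 73281 of the 162760 regions in all 6 lists of the series. Of these, 38822 were in the XX list and 34459 in the XY list. Regions on the X and Y chromosomes were left out because the sexes differ in the dose of these chromosomes. The XX list stands for the female lines BCF3 and BCF4 and the XY list for the male lines BCM1 and BCM2. All lines were C57BL/6 x CAST/EiJ hybrid ES cells at passage 7-10 by the labels (the methods give a slightly lower upper limit), grown in serum and LIF on inactivated mouse embryonic fibroblasts that included cells of both sexes and were depleted before harvest. The 16 samples of the series also cover H3K27Ac and H3K27Me3 in 2 lines of each sex, and IgG and input in 1 library of each sex, which have no list. Each list is 1 set of coordinates per sex and mark, with no count, score or replicate, so that no SD and no test between the sexes could be given. Intervals below are exact (Clopper-Pearson) 95% binomial intervals and cover counting error only, and the read depth behind each list is unknown.

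H3K4Me1 is placed on nucleosomes by the MLL3 and MLL4 methyltransferases. It marks enhancers whether they are active or only primed, and it flanks the nucleosome-free start of active genes, where trimethylation of the same lysine takes its place. An enhancer that also carries H3K27Ac is generally regarded as active, and one that carries H3K27Me3, the mark of Polycomb repressive complex 2, as poised. In ES cells, poised elements are known for lying at regulators of later development.

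The gene starts whose H3K4Me1 region was in 1 list only and that lay farthest from any region of the other list included those of the cadherins Cdh7 and Cdh10 and the protocadherin Pcdh9, which hold neighbouring cells together. The 200 bases before the 5′ end of the gene are printed for some of the leading genes of each direction. The order is by that distance and not by the number of bases covered. The sequence was read from NCBIM37, the assembly also called mm9, 5′ to 3′ in the direction of transcription. Capitals mark CG dinucleotides, the sites of DNA methylation, and 3 of the 5 stretches lie inside the region that marks the start.
Gm3468, XX list only, minus strand, chr14:6240689-6240888: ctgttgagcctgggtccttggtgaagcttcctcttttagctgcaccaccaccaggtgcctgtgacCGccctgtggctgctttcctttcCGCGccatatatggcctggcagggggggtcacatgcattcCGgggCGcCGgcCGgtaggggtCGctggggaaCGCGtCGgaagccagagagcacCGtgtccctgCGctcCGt
Cdh7, XX list only, plus strand, chr1:111878704-111878903: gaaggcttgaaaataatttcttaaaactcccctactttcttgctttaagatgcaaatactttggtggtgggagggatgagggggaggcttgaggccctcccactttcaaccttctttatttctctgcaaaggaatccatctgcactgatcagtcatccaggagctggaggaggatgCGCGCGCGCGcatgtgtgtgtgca
Car10, XX list only, plus strand, chr11:92959142-92959341: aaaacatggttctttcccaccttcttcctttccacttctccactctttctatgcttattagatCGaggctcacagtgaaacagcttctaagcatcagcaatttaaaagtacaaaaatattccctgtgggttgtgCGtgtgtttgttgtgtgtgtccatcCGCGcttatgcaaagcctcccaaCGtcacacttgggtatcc
Pcdh9, XY list only, minus strand, chr14:94287952-94288151: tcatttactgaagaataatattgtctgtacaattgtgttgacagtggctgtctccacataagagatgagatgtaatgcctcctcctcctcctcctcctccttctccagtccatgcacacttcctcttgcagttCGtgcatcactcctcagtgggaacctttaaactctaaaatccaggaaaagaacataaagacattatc
Gm10748, XY list only, plus strand, chr3:5212638-5212837: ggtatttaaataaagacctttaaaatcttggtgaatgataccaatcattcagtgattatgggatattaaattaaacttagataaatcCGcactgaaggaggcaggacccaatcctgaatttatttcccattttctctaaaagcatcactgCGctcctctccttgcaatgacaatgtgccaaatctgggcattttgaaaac
The stretch before Gm3468 holds 14 CG dinucleotides in its 200 bases, those before Cdh7 and Car10 hold 5 each, that before Gm10748 holds 2 and that before Pcdh9 holds 1. The H3K4Me1 region of Pcdh9 begins 1.05 kb upstream of its 5′ end, and that of Gm10748 begins 0.162 kb downstream of it.

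The XX list held more and narrower regions than the XY list but covered nearly the same length of the genome. The 38822 XX regions covered 283 Mb with a median width of 5 kb, against 34459 XY regions that covered 274 Mb with a median width of 5.6 kb. The number of regions was thus 1.13 times as large in the XX list, and the covered length 1.03 times. The number was larger in the XX list on each of the 19 chromosomes, by 1.08 (chromosome 3) to 1.18 (chromosome 12) times. The covered length was larger in the XX list on 13 of the 19.

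Most H3K4Me1 regions had a partner in the other list, that is, a region that overlapped by at least 1 bp. This was so for 30548 XX regions (78.7%, interval 78.3 to 79.1%) and 29946 XY regions (86.9%, interval 86.5 to 87.3%). There remained 8274 XX-only regions over 30.2 Mb and 4513 XY-only regions over 18.02 Mb, a ratio of 1.83. Regions without a partner were narrower than shared ones, with medians of 3.2 against 5.6 kb in the XX list and 3.8 against 6.2 kb in the XY list.

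How often a region had a partner depended on its width in both lists. In the XX list 51.4% of the regions of 1 to under 2 kb had a partner, 82.1% of those of 4 to under 8 kb, and 99.7% of those of 16 kb or more. In the XY list the shares in the same classes were 66.5%, 87.1% and 99.97%. Of the regions of 16 kb or more, only 9 of 3262 in the XX list and 1 of 3148 in the XY list had no partner. The XX list held 1979 regions of 1 to under 2 kb and 11859 of 2 to under 4 kb, against 807 and 8348 in the XY list.

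**Figure D1:**
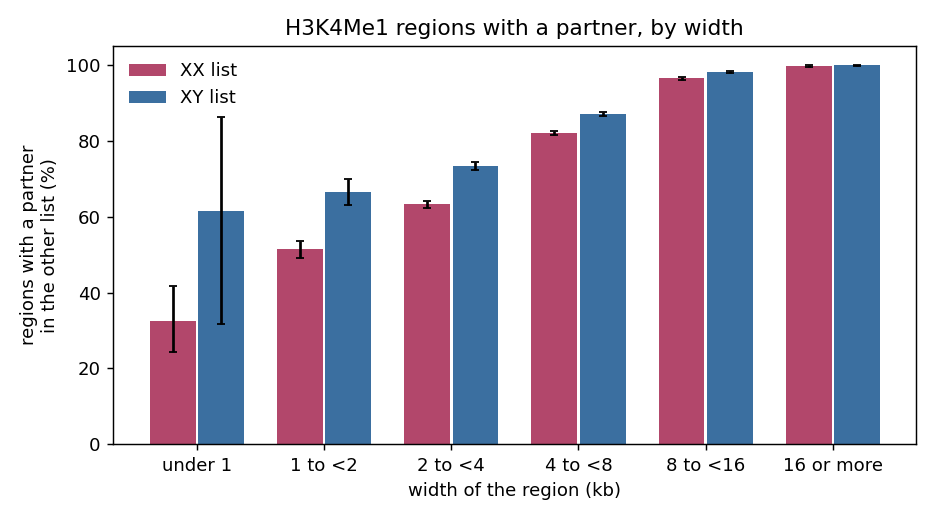
Share of H3K4Me1 regions on chromosomes 1 to 19 that overlap a region of the other list, by width of the region in kb, for the XX list and the XY list. Error bars are exact 95% binomial intervals, and the class under 1 kb holds only 120 XX and 13 XY regions; the share climbs from 32.5% to 99.7% over the XX classes, and it is 98.2% and 99.97% in the XY classes from 8 kb on.

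Because the XX list was longer, equal numbers of the widest regions were also compared. The XX list was reduced to its 34459 widest regions, which dropped 4363 regions of 2.4 kb or less. Of these, 2317 had a partner in the XY list and 2046 had none. With equal numbers, 28231 XX regions (81.9%) and 28211 XY regions (81.9%) were shared, and 6228 XX-only regions stood against 6248 XY-only regions, a ratio of 0.997. Most shared stretches (79.8%) pair 1 XX region with 1 XY region, so lists of equal length give nearly equal counts by construction. This ratio therefore cannot show whether the excess of XX-only regions came with the longer list. The XX-only regions still covered 1.12 times the length of the XY-only ones. Equal numbers shorten the XX list alone. When regions under 2 kb were removed from both lists instead, 7477 XX-only regions stood against 4843 XY-only regions, a ratio of 1.54. The XX list was still the longer after that removal, so the 1.54 cannot show whether the excess came with list length either.

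Shared regions seldom had the same limits in both lists. The shared regions joined into 26334 stretches, of which 21018 (79.8%) paired 1 XX region with 1 XY region. In these pairs the XX region was the wider in 41.0% and the XY region in 52.9%, with a median difference of -200 bp (XX minus XY), which is 1 step of the 200-bp grid on which all regions lie. The median size of the difference was 1000 bp, and 420 pairs had identical limits. When an overlap of 50% of each region was asked for instead of 1 bp, 15569 XX and 11206 XY regions had no partner. In 2345 stretches several XX regions met 1 XY region, and in 1742 several XY regions met 1 XX region. Together the lists had 223 Mb in common, which was 78.9% of the XX length and 81.6% of the XY length. Of the bases in the XX list alone, 49.4% were edges of shared regions, against 64.3% of the bases in the XY list alone.

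XX-only regions lay close to XY regions, and XY-only regions were more often remote. The median distance to the nearest region of the other list was 7.4 kb for XX-only regions and 11.8 kb for XY-only regions. Within 5 kb of the other list lay 3378 (40.8%) of the XX-only regions and 1453 (32.2%) of the XY-only regions. More than 50 kb from any region of the other list lay 748 (9.04%) of the XX-only regions, against 1013 (22.4%) of the XY-only regions. XY-only regions were thus fewer in all, but more of them were remote.

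By position relative to genes, XX-only regions outnumbered XY-only regions in and near genes. Within 2 kb of the start of a protein-coding gene there were 1900 XX-only and 1140 XY-only regions, a ratio of 1.67. In gene bodies, farther than 2 kb from a start, there were 3692 XX-only and 1622 XY-only regions (2.28). Outside gene bodies at 2 to 50 kb from a start there were 1924 XX-only and 924 XY-only regions (2.08). Beyond 50 kb from any start and outside gene bodies, 758 XX-only regions stood against 827 XY-only regions (0.917). The lists also differed in length by position. Counting all regions, shared or not, the XX to XY ratios in the same order were 1.03, 1.25, 1.21 and 1.02. The part of list length in the XX-only to XY-only ratios was not tested. Such gene-distant places held 9.16% of the XX-only and 18.3% of the XY-only regions, against 8.49% and 8.27% of the shared regions of the XX and XY lists.

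The balance of XX-only and XY-only regions varied with the base composition of their surroundings. All regions of both lists were sorted into 5 bins of equal size by the GC content of the 100 kb around their centre, a split that was chosen after the data had been seen. In the bin with the lowest GC content (33.8 to 42.4%) there were 1810 XX-only and 1591 XY-only regions, a ratio of 1.14. In the bin with the highest (48.6 to 61.3%) there were 1539 XX-only and 430 XY-only regions, a ratio of 3.58. The ratio was higher in each bin than in the one before it, and the share of XX regions without a partner was 24.0% in the lowest and 19.6% in the highest bin, against 22.4% and 6.32% of XY regions. With equal numbers of regions the ratio ran in the same order, at 0.581 in the lowest bin and 2.16 in the highest, with 0.809 in bin 2 and 1.04 in bin 3. XX-only regions had a median GC content of 46.7% themselves, close to the 46.8% of shared XX regions, and XY-only regions one of 45.2%, against 46.7% of shared XY regions. The XY-only regions over 50 kb from any XX region were the poorest in GC, at a median of 43.7%, against 46.6% for XX-only regions as far from any XY region.

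The same order of GC bins was not a feature of all marks. In the H3K27Me3 lists the XX-only to XY-only ratio was 1.46 in the lowest and 2.89 in the highest of the same bins, and in the H3K27Ac lists it ran the other way, at 2.49 and 1.39. Over the 19 chromosomes, the H3K4Me1 ratio of XX-only to XY-only regions was between 1.22 (chromosome 3, whose GC content was the lowest at 40.5%) and 2.47 (chromosome 5), and it had a Pearson correlation of 0.70 with the GC content of the chromosome (Spearman 0.69, n = 19 chromosomes). The points share the same pair of lists, so this describes the lists and was not tested. The part of GC content in the difference between the lists was not tested either.

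**Figure D2:**
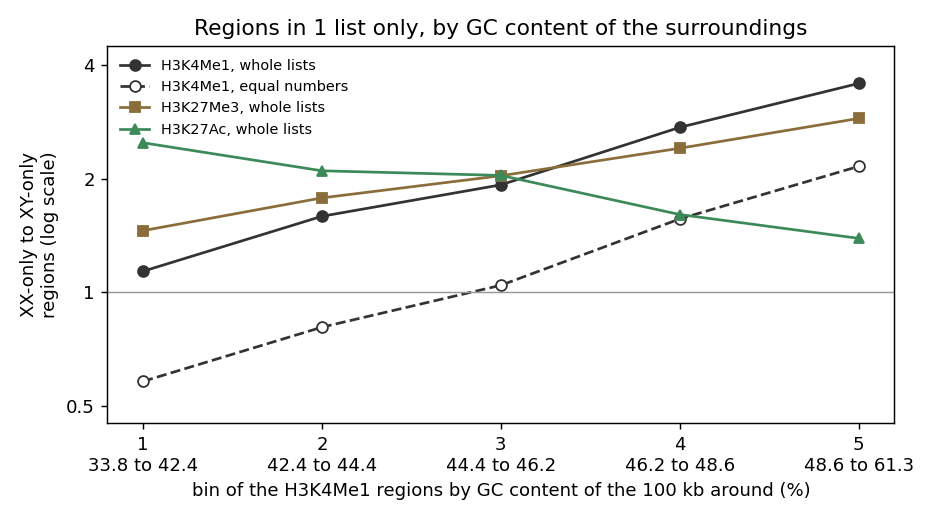
Ratio of XX-only to XY-only regions (log axis, the grey line marks 1) in 5 bins of the H3K4Me1 regions by GC content of the 100 kb around them, for the H3K4Me1 lists as deposited and at equal numbers of regions, and for the H3K27Me3 and H3K27Ac lists in the same bins. The H3K4Me1 ratio goes up from 1.14 to 3.58 with whole lists and from 0.581 to 2.16 at equal numbers, and the H3K27Ac ratio goes down from 2.49 to 1.39.

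Short motifs were counted in the central 1 kb of the regions of at least 1 kb, on both strands, as a description of their sequence. ATGCAAAT, the octamer bound by POU factors such as Oct4, was found in 5.19% of XX-only and 7.17% of XY-only regions, and in 5.64% and 5.69% of the shared regions of the XX and XY lists. TCAAGGTCA, the site of Esrrb, was found in 3.45% of XX-only and 2.82% of XY-only regions, against 3.51% and 3.73% of shared regions. TGANTCA, in which N was any base, includes the sites of the AP-1 factors but is wider than them. It was found in 26.1% of XX-only and 29.3% of XY-only regions, against 25.8% of shared regions in both lists. Over all 73148 such windows the shares were 5.70%, 3.55% and 26.0%. XY-only regions over 50 kb from any XX region held the octamer in 9.18% and TGANTCA in 31.2%, and these are also the regions with the lowest GC content. The part of base composition in these shares was not tested.

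Around gene starts the lists had the same outline, with the XX share higher at the start itself and 10 kb away and the XY share higher at about 2 kb. Of 21418 protein-coding genes, 46.2% were covered at their 5′ end by the XX list and 43.2% by the XY list. Both lists reached their highest share, 53.0%, at 1200 bp into the gene, and both had a lower shoulder upstream, with 49.3% in the XX list and 48.5% in the XY list at -600 bp. The XX list exceeded the XY list by up to 3.05 percentage points (at 200 bp into the gene), and the XY list exceeded the XX list most at 2200 bp, with a difference of -1.28 points (XX minus XY). At 10 kb upstream the shares were 25.8% in the XX list and 23.8% in the XY list, and at 10 kb downstream 31.0% and 28.6%.

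**Figure D3:**
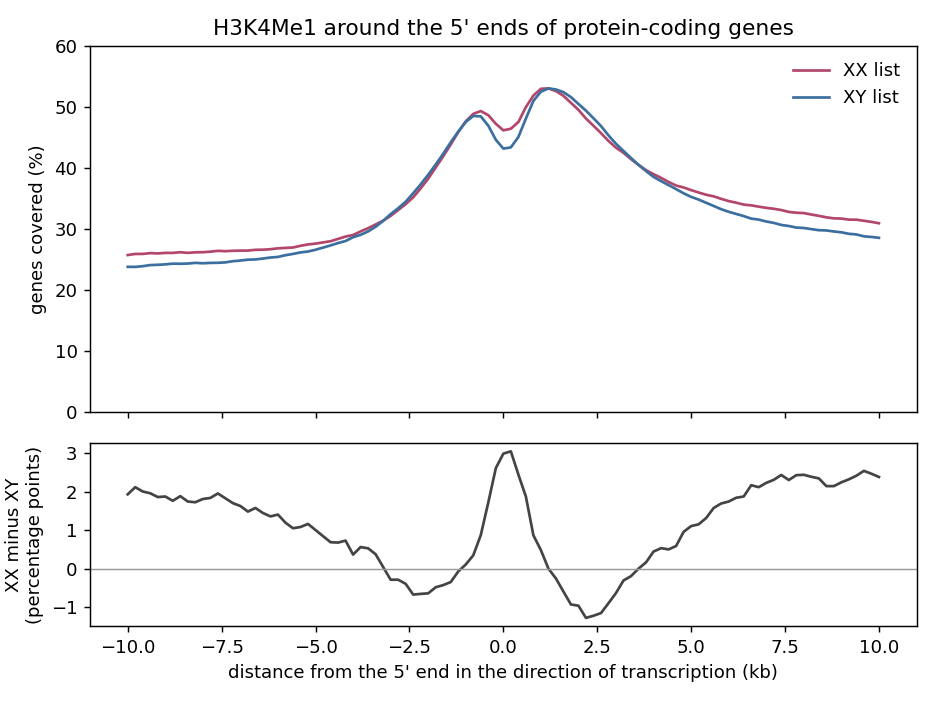
Share of 21418 protein-coding genes covered by H3K4Me1 regions of the XX and XY lists, by distance in kb from the 5′ end in the direction of transcription (top), and the difference XX minus XY in percentage points (bottom). The dip at the start is shallower in the XX list (46.2%) than in the XY list (43.2%), and the flanks at about 2 kb are covered slightly more often in the XY list.

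Most genes with H3K4Me1 at the start had it in both lists. A region lay within 2 kb of a start of 13332 genes (62.2%) in the XX list and of 13153 genes (61.4%) in the XY list, and of 12271 genes (57.3%) in both. XX-only starts numbered 1061, which is 4.95% of all genes tested, and XY-only starts 882, which is 4.12%. Over gene bodies 1067 genes (4.98%) were marked in the XX list only and 705 (3.29%) in the XY list only. Within 50 kb of a start the counts were 526 XX-only (2.46%) and 537 XY-only genes (2.51%), and 76.7% of genes were marked in both. The XX-only to XY-only ratio was thus 1.20 at starts, 1.51 over bodies and 0.980 within 50 kb.

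These gene counts depended on the length of the lists. With equal numbers of regions there were 896 XX-only (4.18%) and 1197 XY-only starts (5.59%), 880 XX-only (4.11%) and 1022 XY-only bodies (4.77%), and 384 XX-only (1.79%) and 824 XY-only genes (3.85%) within 50 kb. The ratios were then 0.749, 0.861 and 0.466, so that the direction turned round at starts and over bodies. Of the 1061 XX-only starts, 896 (84.4%) were still XX-only and 165 were in neither list, and 315 starts that had been in both lists became XY-only. With the widest 10000 regions of each list the ratio was again above 1 at starts, with 1338 XX-only and 1152 XY-only genes (1.16), and over bodies, with 1358 and 1213 (1.12), and it was 0.958 within 50 kb. At the full equal number only the XX list was shortened, so no XY-only gene could be lost. By chromosome, the ratio at starts ran between 0.567 (34 XX-only and 60 XY-only genes on chromosome 6) and 2.29 (96 XX-only and 42 XY-only on chromosome 2), with more XX-only starts on 14 of the 19.

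**Figure D4:**
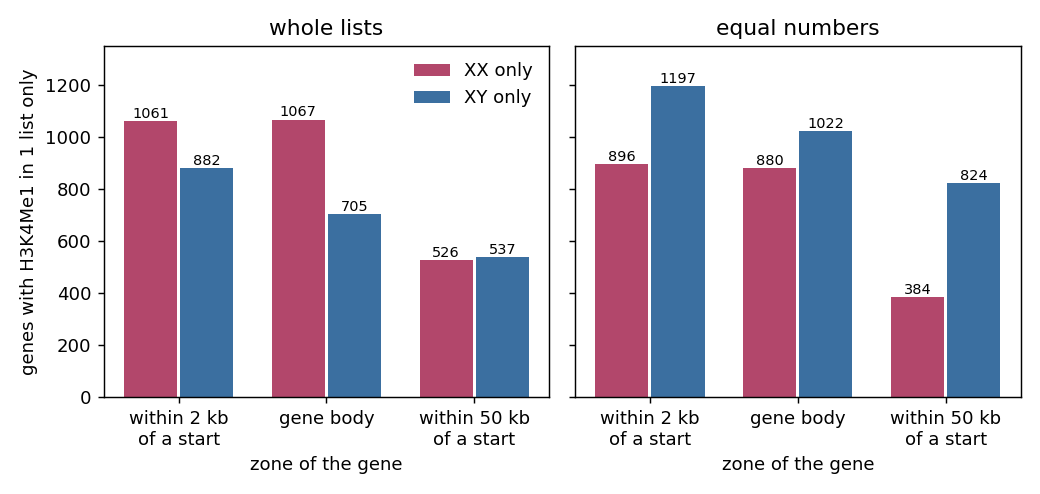
Numbers of protein-coding genes with H3K4Me1 in the XX list only and in the XY list only, within 2 kb of a start, over the gene body and within 50 kb of a start, with the lists as deposited (left) and with equal numbers of the widest regions (right). At starts the bars are 1061 XX-only and 882 XY-only genes with whole lists, and 896 XX-only and 1197 XY-only genes at equal numbers.

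Seen by the GC content of the 100 kb around their 5′ end, the starts gave the same order as the regions. In the lowest of 5 bins of all genes there were 139 XX-only and 195 XY-only starts, a ratio of 0.713, and in the highest 196 XX-only and 91 XY-only starts, a ratio of 2.15. Within 500 bp of the 5′ end itself the median GC content was 55.9% at XX-only and 56.5% at XY-only starts. The ratio of observed to expected CG dinucleotides, which is high in CpG islands, was over 0.6 at 46.9% of XX-only, 55.1% of XY-only, 66.3% of shared and 11.6% of unmarked starts.

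Most starts marked in 1 list only had a region of the other list within 50 kb. For 862 (81.2%) of the 1061 XX-only starts an XY region lay within 50 kb, and for 680 (77.1%) of the 882 XY-only starts an XX region did. The share of all genes was 79.2% for either list, but it is not a like comparison. It includes the genes with a region within 2 kb of a start (62.2% in the XX and 61.4% in the XY list). Starts of 1 list have no region of the other list that close by definition. The nearest region of the other list was within 5 kb at 209 (19.7%) of the XX-only and 252 (28.6%) of the XY-only starts. In neither the body nor the 50 kb around did the other list hold a region at 183 XX-only genes (17.2%) and 179 XY-only genes (20.3%). The starts called XX-only rested on 1047 distinct regions, of which 945 had no partner, and the XY-only starts on 863, of which 716 had none.

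The marks of activity and repression differed between starts shared by the lists and starts of 1 list. H3K27Ac lay at 38.5% of XX-only H3K4Me1 starts in its XX list and 37.1% in its XY list, and at 45.5% and 47.1% of XY-only starts. At starts with H3K4Me1 in both lists these shares were 78.5% in each list of H3K27Ac, and over all genes 51.4% in each. H3K27Me3 lay at 53.8% of XX-only starts in its XX list and at 44.9% in its XY list, at 46.3% and 43.7% of XY-only starts, at 42.2% and 37.0% of shared starts, and at 33.9% and 29.8% of all genes. XX-only H3K4Me1 starts thus had H3K27Me3 in 1 list only at 129 genes (12.2%) on the XX side and 34 genes (3.20%) on the XY side. Over all genes these numbers were 1579 (7.37%) and 701 (3.27%), and at starts with H3K4Me1 in both lists 1081 (8.81%) and 448 (3.65%).

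Within the list of the same sex, 43.1% of XX-only starts carried H3K27Me3 without H3K27Ac, 27.8% H3K27Ac alone, 10.7% both and 18.4% neither. XY-only starts carried H3K27Me3 alone at 32.3%, H3K27Ac alone at 35.7%, both at 11.3% and neither at 20.6%. At shared starts, H3K27Me3 alone was found at 17.4% in the XX lists and 16.2% in the XY lists, and H3K27Ac alone at 53.8% and 57.7%. XX-only and XY-only starts therefore held the Polycomb mark without acetylation more often than shared starts, and shared starts were mostly acetylated. Of XX-only starts, 51 (4.81%) had H3K27Ac in its XX list only and 36 (3.39%) in its XY list only, and of XY-only starts 31 (3.51%) and 45 (5.10%). Over all genes H3K27Ac was in 1 list only at 2.82% of starts on either side, and at starts with H3K4Me1 in both lists at 3.59% on either side.

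**Figure D5:**
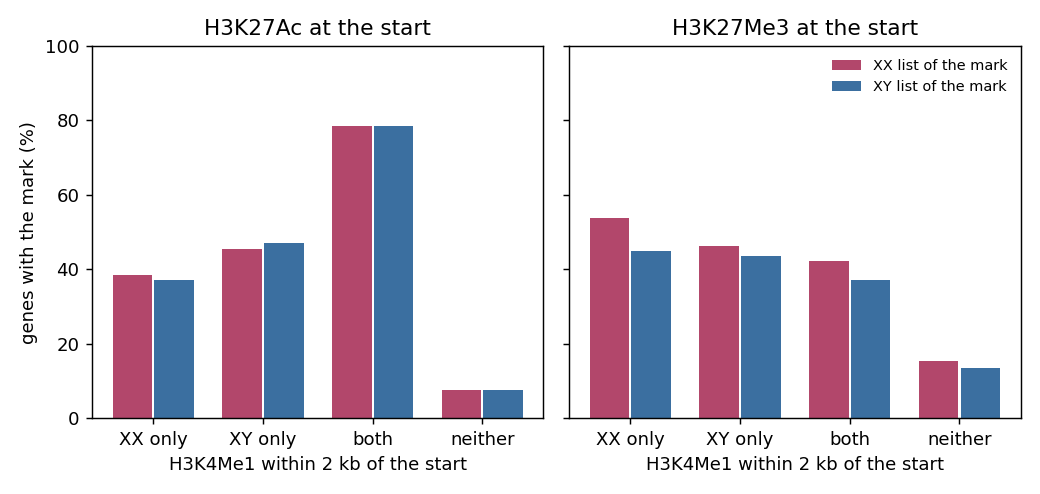
Share of genes with H3K27Ac (left) and H3K27Me3 (right) within 2 kb of a start in the XX and XY lists of each mark, for genes grouped by H3K4Me1 at the start. H3K27Ac is at 78.5% of starts with H3K4Me1 in both lists and at 37.1 to 47.1% of starts in 1 list only, and H3K27Me3 is at 53.8% (XX list) and 44.9% (XY list) of XX-only starts.

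Over all regions, at starts or not, acetylation was likewise less frequent where H3K4Me1 was in 1 list only. H3K27Ac of the XX list overlapped 17.1% of all XX-only regions, against 58.0% of shared XX regions. H3K27Ac of the XY list overlapped 26.9% of XY-only regions, against 56.7% of shared XY regions. H3K27Me3 of the XX list overlapped 24.7% of XX-only and 31.0% of shared XX regions, and H3K27Me3 of the XY list overlapped 19.1% of XY-only and 26.3% of shared XY regions. Of the regions over 2 kb from any start, H3K27Ac of the XX list overlapped 12.8% of 6374 XX-only and 45.7% of 17206 shared XX regions, and H3K27Ac of the XY list 20.5% of 3373 XY-only and 42.0% of 16278 shared XY regions. H3K27Me3 of the XX list overlapped 21.2% and 24.97% of these XX-only and shared regions, and that of the XY list 13.5% of the XY-only and 20.6% of the shared ones. Regions in 1 list only were also the narrower ones, as given above, and the part of width in these shares was not tested.

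The XX-only starts farthest from the XY list belonged to 10 genes whose nearest XY region was 0.330 to 2.34 Mb from a start. Gm3468, on chromosome 14, is a gene model without an established name and was marked by a 2.6 kb XX region. Dcc, a netrin receptor that guides axons, had a 3.4 kb XX region (chr18:72508001-72511400) over its start, and the nearest XY region was 1223 kb from the start. Cdh7, a classical cadherin, had a 3.2 kb XX region (chr1:111877201-111880400) and no XY region within 804 kb of the start. Car10, which encodes a carbonic anhydrase-related protein of the brain, had a 4 kb XX region (chr11:92958401-92962400). Its gene body held XY regions over 1663 bp, and the XY region nearest to a start was 501 kb from it. The other genes were Cxxc4, an inhibitor of Wnt signalling, Stxbp6, a syntaxin-binding protein, AI593442, Mdga2, an adhesion molecule of synapses, Gria4, a glutamate receptor subunit, and Adamts3, a procollagen protease. Their regions were 2.6 to 3.8 kb wide. Of the 10 starts, 6 carried H3K27Me3 in both of its lists, 1 in the XX list only, 2 in the XY list only and 1 (Stxbp6) in neither. H3K27Ac was at Stxbp6 alone. H3K27Me3 was in both lists at 41.7% of all XX-only starts and at 26.5% of all genes.

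The XY-only starts farthest from the XX list were also 10 genes, with the nearest XX region 0.992 to 3.67 Mb from a start. Pcdh9, a protocadherin, led with a 2.2 kb XY region (chr14:94289001-94291200), and the nearest XX region was 3.67 Mb from its start. Cdh10, a cadherin of the nervous system, had a 5 kb XY region over its start, with no XX region within 2545 kb of the start. Sema3d, a secreted semaphorin that guides axons, had one of 2.8 kb, Mmp16, a membrane-bound metalloproteinase, one of 2.6 kb, and Gpr37, a receptor of the brain, one of 2.6 kb. Gm10748, Hdgfl1 and Vmn1r90, a vomeronasal receptor, were also among the 10. H3K27Me3 was in both of its lists at 9 of these starts and in the XX list only at Vmn1r90, which was also the 1 start with H3K27Ac. For all XY-only starts the share with H3K27Me3 in both lists was 39.1%, and for all genes 26.5%. The regions were narrow in both directions, 2.6 to 4 kb at the XX-only and 1.8 to 5 kb at the XY-only starts.

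The widest region without a partner at a start was 29.6 kb in the XX list, at Fcgr3, which encodes an Fc receptor of immune cells. It lay 0.6 kb from the nearest XY region, and an XY region also lay within 2 kb of a start of Fcgr3, so the gene was counted as marked in both. 2610305D13Rik, on chromosome 4, was similarly marked in both lists, beside an XX-only region of 20.8 kb. The other genes were Ifnz, an interferon gene, and the gene models Gm13272, Gm13275, Gm13276, Gm13277, Gm13278, Gm13279 and Gm13285. These all rest on a single 19.4 kb XX region (chr4:88424801-88444200), so they are 1 difference between the lists and not several. Neighbouring gene copies such as these share sequence, and how reads that map to several copies were placed is not given in the sources used here. Of the XX-only regions at any position the widest was 89.2 kb (chr8:126060001-126149200), which overlapped Gas8 and Gm20388, and 1 of 17.8 kb lay at a start of Rere, a transcriptional corepressor.

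In the XY list the widest region without a partner was 16.8 kb, over D1Pas1, an RNA helicase gene expressed in testis (chr1:188786001-188802800). It covered all 4001 bp of the 2 kb on either side of the start, and the nearest XX region was 5.2 kb from it and 10.5 kb from the start. Ppl, which encodes the cytoskeletal linker periplakin, had an 11.6 kb XY region (chr16:5128601-5140200) with the nearest XX region 5.2 kb from it and 12.8 kb from its start, and its H3K27Ac was also in the XY list only. Plscr1, a phospholipid scramblase, had a 10.4 kb XY region with an XX region 0.4 kb from it and 8.51 kb from the start. Nipal4, a membrane protein of the epidermis, had one of 10.6 kb with an XX region 30 kb from it and 40.2 kb from the start. 2310079F23Rik had an 11.2 kb XY region, with an XX region 1 kb from it and 6.88 kb from the start. Arid5b, Ttpal, Zmiz1, Heatr7b1 and Naaa had XY-only regions of 11.2 to 11.8 kb at a start and were counted as marked in both lists, since an XX region also lay within 2 kb of a start. At Naaa, unlike Ppl, H3K27Ac was in the XX list only. The other widest XY-only regions were of 14.6 kb in Spred1, 14.4 kb in Gal3st2, 13.8 kb in Ube2d3 and 13.2 kb between genes on chromosome 16, with the nearest start 14.2 to 44.8 kb away.

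Over gene bodies, the most extensive XX-only marking was at Nfat5, a transcription factor of the osmotic stress response. XX regions covered 20231 bp of its body, against 0 bp in the XY list, whose nearest region ended 0.369 kb before the gene, so that the start was shared. Ube3c, a ubiquitin ligase, had 20000 bp in XX regions and no XY region within 82.8 kb of its start. Ltbp2, of the latent TGF-beta binding family, had 17682 bp, Pag1, an adaptor of the T cell receptor pathway, 14279 bp, and Acot11, an acyl-CoA thioesterase, 13600 bp. Within 50 kb of starts, XX-only marking was most extensive at the neighbours Dhx38, Hp and Txnl4b on chromosome 8, each with 22200 bp, and at Ube3c and Dhodh with 19782 and 19400 bp. The marked bases of Dhx38, Hp and Txnl4b are shared by these neighbours. Dhodh lies beside them on chromosome 8 and shares marked bases with them, such as the XX region at chr8:112086401-112091400.

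XY-only marking of gene bodies was most extensive at Pde4b, a cAMP phosphodiesterase. It had 13800 bp in XY regions and 0 bp in XX regions, with the nearest XX region 87.7 kb from a start. Ocln, which encodes occludin of tight junctions, had 12812 bp, Sema6d, a transmembrane semaphorin, 12600 bp, Prex2, an exchange factor for Rac, 12055 bp, and Cdk14, a cyclin-dependent kinase, 11800 bp. Within 50 kb of starts the leading gene was Rbfox1, a neuronal splicing regulator, with 20200 bp in the XY list against 0 bp in the XX list. No region of either list lay within 2 kb of its starts, and its body held 28600 bp of XY and 3200 bp of XX regions. Slc39a10, a zinc transporter, had 17200 bp, and Cblb, a ubiquitin ligase of immune signalling, 12200 bp.

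Some genes marked within 50 kb in 1 list only shared their regions. The 526 XX-only genes rested on 490 distinct regions and the 537 XY-only genes on 435, and single regions served up to 7 XX-only and 8 XY-only genes. By name, and chosen after their values had been seen, the XX-only genes held 11 of 18 late cornified envelope genes (Lce) and 10 of 21 beta protocadherins (Pcdhb), and the XY-only genes held 12 of 15 trace amine-associated receptors (Taar). Each of these families lies in a cluster, so that neighbours share regions. Of 1106 olfactory receptors (Olfr), 23 (2.08%) were XX-only and 44 (3.98%) XY-only, against 2.46% and 2.51% of all genes. On chromosome 18 there were 26 XX-only and 4 XY-only genes by this window, the highest ratio of any chromosome at 6.5. These 26 include the 10 beta protocadherins, whose cluster lies on that chromosome. On chromosome 16 there were 14 XX-only and 38 XY-only genes, the lowest ratio at 0.368.

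The genes that define ES cells were marked in both sexes. All 22 genes of the naive and core pluripotency list, among them Pou5f1, Nanog, Sox2, Esrrb, Klf4 and Zfp42, had H3K4Me1 at the start in both lists, against 57.3% of all genes. The same held for the 18 genes of H3K4 methylation and enhancer cofactors, the 11 of DNA methylation, and the 13 of MAPK feedback. Of 19 formative genes 18 were marked in both, and Cer1, a secreted Nodal antagonist, was XY-only with a 4 kb XY region and the nearest XX region 26.1 kb from the start. Of 16 mesoderm and endoderm regulators 15 were marked in both. Sox17, the endoderm transcription factor, was XX-only with a 2.8 kb XX region (chr1:4485601-4488400), no XY region within 191 kb of the start, and H3K27Me3 in both lists.

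Among 20 cardiac transcription factors, 14 starts were marked in both lists, 1 in the XX list only, 3 in the XY list only and 2 in neither. Hopx, a homeodomain protein without DNA binding of its own, was XX-only with a region of 5 kb, and an XY region lay 2.81 kb from its start. Mef2a, a MADS-box factor, was XY-only with a region of 5.8 kb and the nearest XX region 20.4 kb from the start. Myocd, the coactivator of serum response factor, was XY-only with 2.8 kb and an XX region 23.1 kb from the start. Isl1, of the second heart field, was XY-only with 6.8 kb and an XX region 3.5 kb from the start. All of these 4 starts had H3K27Me3 in both of its lists, and Mef2a also had H3K27Ac in both. H3K27Me3 was in both lists at 41.7% of all XX-only and 39.1% of all XY-only starts. Among all genes 4.95% of starts were XX-only and 4.12% XY-only, and counts as small as these are a description of the lists.

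Of 18 neural regulators 14 were marked in both lists, none in the XX list only, 2 in the XY list only and 2 in neither. Neurog1, a proneural factor marked in the XY list only, had a 7 kb XY region and an XX region 3.28 kb from its start. Of 40 annotated Hox entries, with Hoxa3 entered as 2 genes, 34 starts were marked in both lists, 1 (Hoxd8) in the XX list only and 4 (Hoxa4, Hoxa13, Hoxc8 and Hoxd13) in the XY list only. All 5 had H3K27Me3 in both lists, as did 41.7% of all XX-only and 39.1% of all XY-only starts. The other list lay 2.27 kb from the start at Hoxd8 and 2.93 to 5.95 kb from it at the XY-only genes. All 40 entries had regions of both lists within 50 kb of a start. At Hoxc8 a 4.6 kb XY region (chr15:102820201-102824800) covered 3646 bp of the body, against 0 bp in the XX list. Of 10 trophoblast genes 9 were marked in both and 1 in neither. Of 15 germline genes only 1 was marked in both and 12 in neither, with Hormad1, a gene of meiotic chromosomes, XX-only and Tdrd1, of the piRNA pathway, XY-only.

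The regulators that the study lists by expression were described in the same way, and since they were chosen on cells of the same origin their direction is not independent of the study. Of 18 regulators higher in XX ES cells, 11 starts were marked in both lists, Dmrtb1 in the XX list only, Top2b and Hoxc8 in the XY list only, and 4 in neither. Of 44 regulators higher in XY ES cells, 43 were marked in both and Nfxl1 in the XX list only. Among large families, of 362 zinc finger (Zfp) genes 28 were XX-only (7.73%) and 21 XY-only (5.80%), and of 358 solute carriers 20 (5.59%) and 15 (4.19%), against 4.95% and 4.12% of all genes. At equal numbers of regions both directions turned round, with 23 XX-only and 29 XY-only zinc finger genes and 16 XX-only and 24 XY-only solute carriers. Of 1106 olfactory receptors 1095 had no region at the start in either list. Of 14 housekeeping genes 13 were marked in both, and B2m, the light chain of MHC class I, was XX-only with a 2.4 kb XX region and an XY region 10.4 kb from its start.

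Feeder fibroblasts were the other cell type the harvest could hold. Of 16 fibroblast markers, 7 starts were marked in both lists, none in the XX list only, 3 in the XY list only and 6 in neither, where all genes had 57.3% in both, 4.95% and 4.12% in 1 list and 33.6% in neither. Dcn, which encodes the proteoglycan decorin, had a 2.8 kb XY region at the start and no XX region within 196 kb of the start, with neither H3K27Ac nor H3K27Me3 in any list. Twist1 and Twist2, transcription factors of the mesenchyme, had XY regions of 2.4 and 3 kb, and H3K27Me3 in both lists. H3K27Ac was at the start of Twist1 in its XY list only, and at that of Twist2 in neither. Pdgfra was marked at the start in both lists but over its body in the XY list only, with 4885 bp. Whether remaining feeder cells had a part in any XY-only region was not tested, and a smaller share of cells with the mark and less of the mark per cell cannot be told apart in these lists.

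At gene starts H3K4Me1 lay between the other marks in how much of it was in 1 list only. Of the starts with the mark in any list, 13.7% had H3K4Me1 in 1 list only, against 10.4% for H3K27Ac and 28.6% for H3K27Me3, and at equal numbers of regions the shares were 14.9%, 13.2% and 28.5%. Within 50 kb of starts the order of H3K4Me1 and H3K27Ac depended on the setting. With whole lists the share was 6.08% for H3K4Me1, against 5.68% for H3K27Ac and 17.99% for H3K27Me3. At equal numbers it was lowest for H3K4Me1, at 6.96%, against 7.85% and 18.7%. Shared regions made up 78.7% of the XX and 86.9% of the XY list for H3K4Me1, 81.2% and 89.5% for H3K27Ac, and 60.5% and 76.6% for H3K27Me3, all on chromosomes 1 to 19. Within 50 kb of starts the XX-only to XY-only ratio of genes was 0.980 for H3K4Me1, 1.65 for H3K27Ac and 2.52 for H3K27Me3, and at equal numbers of regions 0.466, 0.549 and 1.20. With 1 list per sex and mark these differences between marks were not tested.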

How the data were processed

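Chromatin immunoprecipitation and sequencing was done by the authors in 2 XX and 2 XY ES cell lines per mark. The methods give alignment of single-end reads to mm9 with Bowtie2 and enrichment with Bedtools, while deepTools appears only in the submitters' processing notes. Which caller and threshold gave the regions, and how input, IgG and the lines of 1 sex entered, is not given in the sources used here. Coordinates alone were deposited by the authors, with 3 columns and no score. Starts are multiples of 200 and ends lie 1 under such a multiple, so the end was read as the last base counted from 0, and coordinates are printed counting from 1. Coordinates carry no read depth, so how precisely each region is known cannot be said.

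Protein-coding genes came from GENCODE M1 on NCBIM37. Regions were shared when they overlapped by at least 1 bp, and genes were marked within 2 kb of any start, over the body or within 50 kb of any start. Counts were made with Python 3.11.15, NumPy 2.4.6 and SciPy 1.17.1, were tested on simulated lists, and 6 of 6 overlap counts equalled those of BEDTools 2.31.1. No test was made, since each sex has 1 list. The alternatives were equal numbers of the widest regions, the widest 20000 or 10000, regions of at least 2 kb, regions up to 1 kb apart shared or merged, a reciprocal overlap of 50%, and windows of 1, 5 and 20 kb, the 5′ end alone or 50 kb around the whole gene.

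Genes were named by a rule: per direction, the 10 starts farthest from the other list, the 10 with the widest region without a partner at a start, the 5 with the most covered bases per zone, the 5 widest regions without a partner, and members of the gene lists in 1 list only. The members, gene lists and rule were chosen with earlier results of these data known. Of the listed genes, Tfcp2l1, Sox1, Tfap2c and Tdrd5 were not analysed here, and the MLL genes were matched by their older names. Some items that the rule picks are not reported here.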

Additional observations from a re-analysis of the deposited data

How the results depend on the processing

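No paired analysis was possible because the lines of each sex are combined in 1 list, and replicate numbers exist only in the labels. Over the alternatives on chromosomes 1 to 19 together the XX-only to XY-only ratio ran between 0.997 and 1.83 for regions, 0.749 and 1.35 for gene starts, 0.861 and 1.51 for gene bodies, and 0.466 and 1.22 within 50 kb, while single chromosomes gave 1.22 to 2.47 for regions. Equal numbers of the widest regions turned the ratio to 0.997 for regions, 0.749 at starts and 0.861 over bodies, and moved it to 0.466 within 50 kb, where XY-only genes numbered 824. With the widest 20000 of each list the ratios were 0.997 (3949 XX-only regions), 0.988 at starts, 0.986 over bodies (1217 XY-only genes) and 0.610 within 50 kb (913 XY-only genes). With the widest 10000 there were 2159 XX-only and 2127 XY-only regions (1.02), ratios of 1.16 at starts and 1.12 over bodies (1213 XY-only genes), and 973 XX-only and 1016 XY-only genes within 50 kb. A reciprocal overlap of 50% left 15569 XX-only and 11206 XY-only regions. A window of 20 kb in place of 50 kb gave a ratio of 1.22, on the other side of 1. The other 71 values kept their direction and moved by less than 1.5 times. Shortening a list removes its narrow regions by construction, and these are the ones that most often lack a partner. For regions, lists of equal length also bring the ratio close to 1 by construction. Whether depth or threshold differed between the lists was not tested, since coordinates carry neither.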
